A study of Homo sapiens with 288 samples.

Results

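TFAP2A, TFAP2B and TFAP2C (the AP-2 genes), GATA3, CDX2, TEAD4, ELF5 and TP63 are 8 genes for transcription factors of the trophoblast lineage, and they were followed in single cells made from the human embryonic stem cell line H1. They were chosen by symbol, and all 8 had a row among the 17492 genes of the count tables. Endothelial cells (EC) were obtained by growing H1 in E8 medium with BMP4 at 5 ng/ml and activin A at 25 ng/ml for 2 days, and then with VEGF and WNT for 3 days. Trophoblast-like cells (TB) were obtained in E7, which is E8 lacking FGF2, with BMP4 at 50 ng/ml and SB431542, an inhibitor of the activin and TGF-beta type I receptors. Both groups therefore share the H1 background and exposure to BMP4. Amplified cDNA from each of 96 captured cells, 45 EC and 51 TB, was brought to a similar concentration per cell (equalization) and sequenced in 3 experiments. EQ pooled equal volumes, EQ-Vary pooled unequal volumes, and EQ-75% repeated EQ at lower depth, so the 3 experiments are repeat libraries of the same cells.

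The AP-2 proteins bind GC-rich DNA as dimers and are expressed in trophoblast, surface ectoderm and neural crest. GATA3, a zinc finger factor, acts with TFAP2A and TFAP2C early in trophoblast differentiation and also has roles in T cells and breast epithelium. In the mouse embryo TEAD4 with the coactivator YAP switches on Cdx2 in the outer cells, CDX2 and ELF5 maintain trophoblast stem cells, and TP63, a p53 relative, marks basal epithelia and the villous cytotrophoblast.

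Promoter windows of 300 bases (250 before and 50 after an annotated start) were available from RefSeq on GRCh38.p14 for 6 of the 8 genes, namely TFAP2A, TFAP2B, GATA3, CDX2, ELF5 and TP63. TFAP2C and TEAD4 are named only. The windows were searched on both strands for an AP-2 motif (GCCNNNGGC), a GATA motif (AGATAA) and a TEAD motif (CATTCC), and matches of different motifs do not overlap in the windows printed here. Of 35116 RefSeq promoter windows, 23.2% held the AP-2 motif, 10.33% the GATA motif and 14.03% the TEAD motif. The 3 sequences below are those of TFAP2B, the factor with the largest ratio of means between the cell types in EQ, of GATA3, the factor most shared by them, and of CDX2, which was almost absent from both. They are written 5′ to 3′ on the gene's strand with motif matches in capitals.
TFAP2B, chr6:50818621-50818920, plus strand: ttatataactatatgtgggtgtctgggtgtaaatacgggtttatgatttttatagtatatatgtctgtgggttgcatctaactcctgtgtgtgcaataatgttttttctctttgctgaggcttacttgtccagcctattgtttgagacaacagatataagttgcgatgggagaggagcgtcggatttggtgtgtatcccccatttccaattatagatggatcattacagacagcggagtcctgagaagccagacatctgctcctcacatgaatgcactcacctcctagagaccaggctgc
GATA3, chr10:8045083-8045382, plus strand: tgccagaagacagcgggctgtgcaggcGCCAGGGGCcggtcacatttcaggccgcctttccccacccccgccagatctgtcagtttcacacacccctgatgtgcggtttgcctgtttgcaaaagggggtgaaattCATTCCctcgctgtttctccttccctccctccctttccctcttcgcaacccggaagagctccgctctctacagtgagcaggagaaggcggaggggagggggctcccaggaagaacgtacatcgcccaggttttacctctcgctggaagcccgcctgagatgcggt
CDX2, chr13:27969266-27969565, minus strand: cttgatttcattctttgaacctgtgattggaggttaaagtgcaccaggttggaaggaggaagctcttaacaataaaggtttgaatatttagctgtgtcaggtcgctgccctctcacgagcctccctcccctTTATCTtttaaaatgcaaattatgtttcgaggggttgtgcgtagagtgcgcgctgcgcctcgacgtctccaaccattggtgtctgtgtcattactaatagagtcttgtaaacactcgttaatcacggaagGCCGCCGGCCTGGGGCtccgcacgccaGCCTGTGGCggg
The GATA3 window, the most upstream of its 6, held 1 AP-2 match beginning at -223 and 1 TEAD match beginning at -115, where -1 is the last base before the start. The CDX2 window held 3 AP-2 matches beginning at 12, 19 and 39, where 1 is the first transcribed base and the first 2 matches overlap, and 1 GATA match at -119. No match was found in the windows of TFAP2A, TFAP2B, ELF5 or TP63. A match of this kind is a description of the letters and not evidence of a bound site.

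Values are CPM (counts per 1000000 counts of the cell), made from rounded RSEM expected counts. Cells were kept by the limits of the study (log10 total count of at least 5.4 and at most 31% of counts in the 50 most abundant genes), which left 38 EC and 48 TB cells in EQ, 38 and 46 in EQ-Vary, and 39 and 50 in EQ-75%, with totals of 291346 to 6345160 counts. No separate cultures are named, so each cell type in each experiment is 1 sample. The SDs given are between cells, no p-value was computed, and a gene was called when its mean CPM differed at least 4-fold between the types, among genes with a mean of at least 1 CPM in either. The labels were checked against markers. All 9 trophoblast epithelium markers were at least 4-fold higher in TB, where their sum ran from 3549 to 18548 CPM against 67.1 to 2979 in EC, led by KRT18 (a mean of 1926 CPM) and KRT8 (1259 CPM). Of 14 endothelial markers 13 were lower in TB, with a summed level of 4.57 to 138 CPM there and 629 to 10347 CPM in EC, led by KDR (1600 CPM) and PECAM1 (1317 CPM). The extravillous trophoblast list went the other way. Of its 3 genes tested none was higher and 2 were lower in TB in every experiment, ITGA5 (418 CPM in EC and 12.9 CPM in TB) and ITGA1 (36.7 and 1.94 CPM), and its summed level in EQ was 5.48 to 1667 CPM in EC (median 490 CPM) and 1.03 to 750 CPM in TB (median 16.7 CPM). Of 4 amnion markers 3 were also higher in TB (IGFBP5, 17.3 against 1816 CPM; ISL1, 12.4 against 103 CPM; WNT6, no count in EC and 4.02 CPM). Their summed level was 2.09 to 243 CPM in EC and 144 to 6291 CPM in TB, and the part of such cells in the results for TB was not tested.

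In EQ 4 factors were abundant in TB cells. TFAP2C, GATA3, TFAP2A and TFAP2B had means of 388, 236, 229 and 99.4 CPM there, and at least 10 CPM of all 4 was found together in 39 of 48 TB cells (81.3%) and in no EC cell. The other 4 factors were rare: TP63, ELF5, TEAD4 and CDX2 had means of 5.58, 3.43, 3.32 and 0.348 CPM in TB. At the 4-fold limit 3 of the 7 factors tested were higher in TB (TFAP2B, TFAP2C and TP63) and none was lower, in each experiment. Among all 12751 genes tested in EQ 16% were called higher in TB and 10.8% lower. The corresponding shares were 15.8% and 10.9% in EQ-Vary and 16.4% and 10.2% in EQ-75%. CDX2 did not reach a mean of 1 CPM and was not tested. The median log2 difference of the 7 factors was 1.70 in EQ, beside 0.08 over all genes tested.

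**Figure D1:**
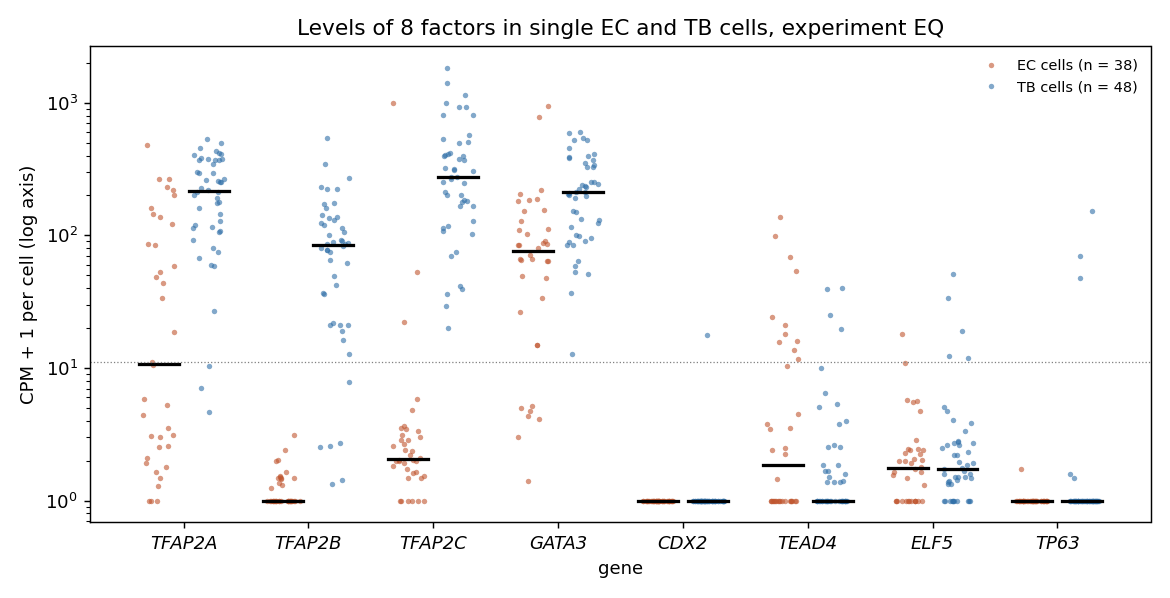
Level of each factor in every passing cell of EQ, as CPM + 1 on a log axis, with EC cells (n = 38) in orange and TB cells (n = 48) in blue, black bars at the medians and a dotted line at 10 CPM. For TFAP2B 43 of 48 TB cells lay above every EC cell, for TFAP2C only 3 EC cells lay above the lowest TB cell, TFAP2A and GATA3 overlapped, and CDX2, TEAD4, ELF5 and TP63 were at or near 0 in most cells.

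TFAP2B (ENSG00000008196, chr6:50818723-50847619, plus strand, 7 exons in GENCODE v44 on GRCh38, the build of all gene coordinates here) had the largest ratio of means in EQ. In the 48 TB cells it ran from 0.335 CPM to 538 CPM with a median of 83.4 CPM, and 42 cells (87.5%, exact binomial 95% interval 74.8 to 95.3) held at least 10 CPM. In the 38 EC cells the highest value was 2.12 CPM and the median 0, and 0 of 38 cells reached 10 CPM, which allows a share of up to 7.89% by a limit of 3 cells (exact binomial upper bound 9.25%). The highest EC cell lay below 43 of the 48 TB cells. The mean was 99.4 ± 100 CPM (SD, n = 48 cells) in TB and 0.266 ± 0.467 CPM (n = 38 cells) in EC, 374-fold higher in TB on 17 EC counts and 8461 TB counts. This fold was 430 in EQ-Vary and 952 in EQ-75%, where EC held 13 and 5 counts. The order of the factors depends on the measure, since TP63 had a ratio of 530 in EQ-Vary, and on the mean of log2(CPM+1) TFAP2C differed 88.7-fold and TFAP2B 43.99-fold. The EC mean of TFAP2B was 0.267% of that in TB. Among the 4098 genes with at least 50 CPM in TB none was at 0 counts in EC. The EC mean as a percentage of the TB mean was 0.347 at the first percentile of these genes, a value TFAP2B lay below. That place restates its large ratio, and whether its few counts in EC are expression was not tested.

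TFAP2C (ENSG00000087510, chr20:56629306-56639283, plus strand, 7 exons), the AP-2 gene used most widely as a marker of trophoblast and primordial germ cells, was the most abundant of the 8 in TB. It was found in 48 of 48 TB cells at 10 CPM or more, from 18.9 CPM to 1842 CPM in TB 14, with a median of 273 CPM. In EC its median was 1.06 CPM and 3 of 38 cells (7.89%, interval 1.66 to 21.4) reached 10 CPM. These were EC 15 with 995 CPM, EC 24 with 52.0 CPM and EC 23 with 21.4 CPM, and only these 3 lay above the lowest TB cell. The means were 388 ± 379 CPM (n = 48) in TB and 29.3 ± 161 CPM (n = 38) in EC, 13.3-fold higher in TB, and 14.1-fold in EQ-Vary and 11.6-fold in EQ-75%. One cell decides the size of this fold. EC 15 alone carried 89.4% of the summed EC level, and without it the difference was 121-fold.

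EC 15 was examined further because of this value, after it had been seen. It held 1502 CPM of NANOG and 384 CPM of POU5F1, 2 genes of the pluripotent state, beside EC means of 83.2 and 28.5 CPM, which include this cell. Not all genes of the pluripotent list followed. DPPA4 was at 111 CPM, below EC 18 with 199 CPM, and TDGF1 at 6.48 CPM, below EC 27 with 22.3 CPM. SOX2 had no count in EC 15 or in any other of the EC cells. The pluripotent marker sum (2755 CPM) and trophoblast epithelium sum (2979 CPM) of EC 15 were the highest of the 38 EC cells. Its endothelial sum (629 CPM) was the lowest, with PECAM1 at 99.6 CPM and CDH5 at 34.4 CPM. SOX17, a factor of endothelium and endoderm, was at 229 CPM. The trophoblast epithelium sum was nearly all KRT8 (1696 CPM) and KRT18 (1254 CPM). KRT19, VTCN1 and EPCAM were at 1.99, 2.49 and 9.46 CPM, and KRT7 had no count. The other factors were low in EC 15, with 3.99 CPM of GATA3, 9.46 CPM of TFAP2A, 0.498 CPM of TFAP2B, and HAND1 had no count. The same cell led EC for TFAP2C in EQ-Vary (995 CPM) and EQ-75% (1188 CPM).

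TFAP2A (ENSG00000137203, chr6:10393186-10419659, minus strand, 7 exons), which also has roles in neural crest and in closure of the face, was carried by both types. TB cells ran from 3.69 CPM to 533 CPM with a median of 215 CPM, and 45 of 48 (93.8%, interval 82.8 to 98.7) held at least 10 CPM. EC cells ran from 0 to 483 CPM with a median of 9.74 CPM, and 19 of 38 (50.0%, interval 33.4 to 66.6) held at least 10 CPM. The even division in EQ follows from a limit that lies next to the EC median. In EQ-Vary 18 of 38 and in EQ-75% 17 of 39 EC cells held at least 10 CPM. In EQ 5 EC cells lay above the TB median. The means were 229 ± 143 CPM (n = 48) in TB and 70.7 ± 108 CPM (n = 38) in EC, a 3.24-fold difference that did not reach the limit of 4 (EQ-Vary 3.39-fold, EQ-75% 2.98-fold). As a difference of mean log2(CPM+1) it was 3.42, or 10.7-fold, past the limit.

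GATA3 (ENSG00000107485, chr10:8045378-8075198, plus strand, 6 exons) differed least of the abundant factors. All 48 TB cells held it at 11.7 CPM or more, with a median of 210 CPM and a highest value of 601 CPM in TB 20. EC cells ran from 0.417 CPM to 946 CPM with a median of 74.9 CPM, and 31 of 38 (81.6%, interval 65.7 to 92.3) held at least 10 CPM. The 2 highest cells of either type were EC cells, EC 43 with 946 CPM and EC 34 with 781 CPM. The means, 236 ± 158 CPM in TB (n = 48) and 120 ± 189 CPM in EC (n = 38), lay 1.97-fold apart, within the spread between cells, and 1.90-fold and 1.96-fold apart in EQ-Vary and EQ-75%. That spread does not set GATA3 apart. Among the factors only TFAP2A, which was not called, had a difference of means in EQ above both of its SDs. On the mean of log2(CPM+1) GATA3 differed 3.52-fold, still under the limit, and 3 of the 38 EC cells lay above the TB median.

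TP63 (ENSG00000073282, chr3:189631389-189897276, plus strand, 14 exons) was called on a few cells. TB 17 held 152 CPM, TB 47 held 68.4 CPM and TB 41 held 46.6 CPM, and no other TB cell reached 10 CPM. EC held 1 count in all, so the ratio of pooled levels, 380, has a counting interval of 67.8 to 15027. The means were 5.58 ± 24.6 CPM in TB (n = 48) and 0.0190 ± 0.117 CPM in EC (n = 38). These 3 TB cells were high in TFAP2C as well, with 1146 CPM in TB 17, 1409 CPM in TB 47 and 923 CPM in TB 41, which are ranks 3, 2 and 5 of the 48 TB cells. The same 3 cells held TP63 at 10 CPM or more in each of the 3 experiments. On the mean of log2(CPM+1), which gives single cells less weight, TP63 differed 1.32-fold and was not called.

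CDX2 (ENSG00000165556, chr13:27960918-27969315, minus strand, 3 exons) had no count in any passing EC cell of the 3 experiments; 0 of 38 cells in EQ allows a share of up to 7.89% by the limit of 3 cells (exact upper bound 9.25%). In TB it was found in EQ in TB 5 alone, with 50 counts or 16.7 CPM, and in the same cell with 15.4 CPM in EQ-Vary and 12.99 CPM in EQ-75%. TB 48, left out of EQ by the limits, held 18.4 CPM in EQ-75%. TB 5 was also the TB cell with the lowest GATA3, 11.7 CPM. Against a floor of 3 counts over the EC cells the mean was at least 9.08-fold higher in TB, on this one cell.

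TEAD4 (ENSG00000197905, chr12:2959330-3040676, plus strand, 13 exons) was the only factor with a higher mean in EC, 12.98 ± 29.1 CPM (n = 38) against 3.32 ± 8.74 CPM in TB (n = 48). EC cells ran from 0 to 136 CPM in EC 19 with a median of 0.861 CPM, and 11 of 38 (28.9%, interval 15.4 to 45.9) held at least 10 CPM. TB cells ran from 0 to 39.1 CPM in TB 19 with a median of 0, and 4 of 48 (8.33%, interval 2.32 to 19.98) held at least 10 CPM. The fold of 3.91 lay just under the limit, at 3.47 in EQ-Vary and 3.20 in EQ-75%. With pooled counts it was 5.11 and with EC 15 left out 4.01, both past it.

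ELF5 (ENSG00000135374, chr11:34478791-34525193, minus strand, 7 exons) was low in both types. It reached 10 CPM in 5 of 48 TB cells (highest 50.1 CPM in TB 27) and in 1 of 38 EC cells (17.0 CPM in EC 21), and its means were 3.43 ± 8.83 CPM and 1.68 ± 3.21 CPM, 2.04-fold apart. Most ELF5 values above 0 (91.0%) were not whole numbers, beside 17.4% to 58.0% for the other factors. RSEM thus shared out reads in most ELF5 values among features with the same sequence, which makes its level uncertain. The part of each count that was shared was not computed. The AP-2 genes are paralogs, and 34.7% of TFAP2B, 49.8% of TFAP2C and 58.0% of TFAP2A values were not whole. GATA3, which is not an AP-2 gene, had 57.6%.

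Counting a cell as positive from a single count gave a different picture in EC. TFAP2C then appeared in 84.2% of EC cells (interval 68.7 to 94.0), TFAP2A in 92.1% and TFAP2B in 36.8%. With every cell thinned to 250000 counts the shares expected in EC were 32.6%, 66.8% and 6.54%, and in TB 100%, 98.9% and 91.6%. In EQ only TFAP2A, at exactly 50%, and GATA3 were present in at least 50% of the EC cells at 10 CPM or more. In EQ-Vary and EQ-75% TFAP2A was at 47.4% and 43.6%, and only GATA3 passed (81.6% and 74.4%).

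Per kilobase of the canonical transcript, which allows genes to be ordered, the TB level was highest for TFAP2C (136 ± 132 CPM per kb, SD, n = 48), followed by GATA3 (76.6 ± 51.1), TFAP2A (72.8 ± 45.4), TFAP2B (17.6 ± 17.8), TEAD4 (1.94 ± 5.11), ELF5 (1.48 ± 3.81), TP63 (1.13 ± 4.97) and CDX2 (0.101 ± 0.698). Between neighbours in this order only the gap from TFAP2A to TFAP2B exceeded both SDs. These SDs are between cells and ignore that the genes were measured in the same cells, so they are a coarse guide to the order. TFAP2B and TEAD4, whose gap did not exceed both SDs, were held at 10 CPM or more by 42 and 4 of the 48 TB cells. In EC the order of levels was GATA3 (38.9 CPM per kb), TFAP2A (22.5), TFAP2C (10.2), TEAD4 (7.59), ELF5 (0.725), TFAP2B (0.0472), TP63 (0.00385) and CDX2 at 0. No gap between neighbours in EC exceeded the larger SD. Among the AP-2 genes, TFAP2C had the highest level per kb in 34 of 48 TB cells, TFAP2A in 12 and TFAP2B in 2. Of the 21 EC cells with any AP-2 gene at 10 CPM or more, TFAP2A led in 19 and TFAP2C in 2.

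The abundant factors were carried in few combinations. Beside the 39 TB cells with all 4, 6 lacked TFAP2B and 3 lacked TFAP2A at 10 CPM. No TB cell in EQ lacked TFAP2C or GATA3. In EC 17 cells carried TFAP2A with GATA3, 12 carried GATA3 alone and 5 carried none of the 4. The cell with TFAP2C alone was EC 15.

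The experiments can be set side by side because they hold the same cells. Of the 5 factors tested in EC and the 7 tested in TB, none had a median within-cell change of 1.5-fold or more between EQ and either of the others. The median was exactly 0 wherever most cells held no count, as for TEAD4 and TP63 in TB, so a shift of those factors could not show. Means of low factors in EC did move past 1.5-fold. In EQ-75% the EC mean of TFAP2B was 31.4% and that of ELF5 65.4% of EQ in the same cells, and in EQ-Vary that of TP63, which rests on 1 count in each, was 59.7%. The shares of all genes with a median within-cell change of 1.5-fold or more were 0.0261% in EC and 0.00841% in TB for EQ-Vary. For EQ-75% they were 0.514% and 0.135%. No such share was computed for changes of means. The largest median changes in TB were in EQ-75%, with ELF5 at 0.750 and TFAP2B at 0.897 of EQ, and in EC they were those of TFAP2C, at 0.793 (EQ-Vary) and 0.847 (EQ-75%) of EQ. For TFAP2A, TFAP2B, TFAP2C and GATA3 the levels of the same TB cells in EQ and in another experiment had a Spearman correlation of 0.966 to 0.997 (46 cells with EQ-Vary, 47 with EQ-75%, and the points share the cDNA). In TFAP2C the SD of the within-cell log2 difference between EQ-75% and EQ was 0.293, against 1.48 between TB cells. Low factors repeated less well. In TB cells the correlation of ELF5 with EQ was 0.482 for EQ-Vary and 0.682 for EQ-75%. Across the EC cells, EQ and EQ-Vary levels of one gene had a correlation of 0.172 for TFAP2C and 0.102 for TFAP2B, where most values were 0 to 3 CPM, and 0.940 for TEAD4.

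**Figure D2:**
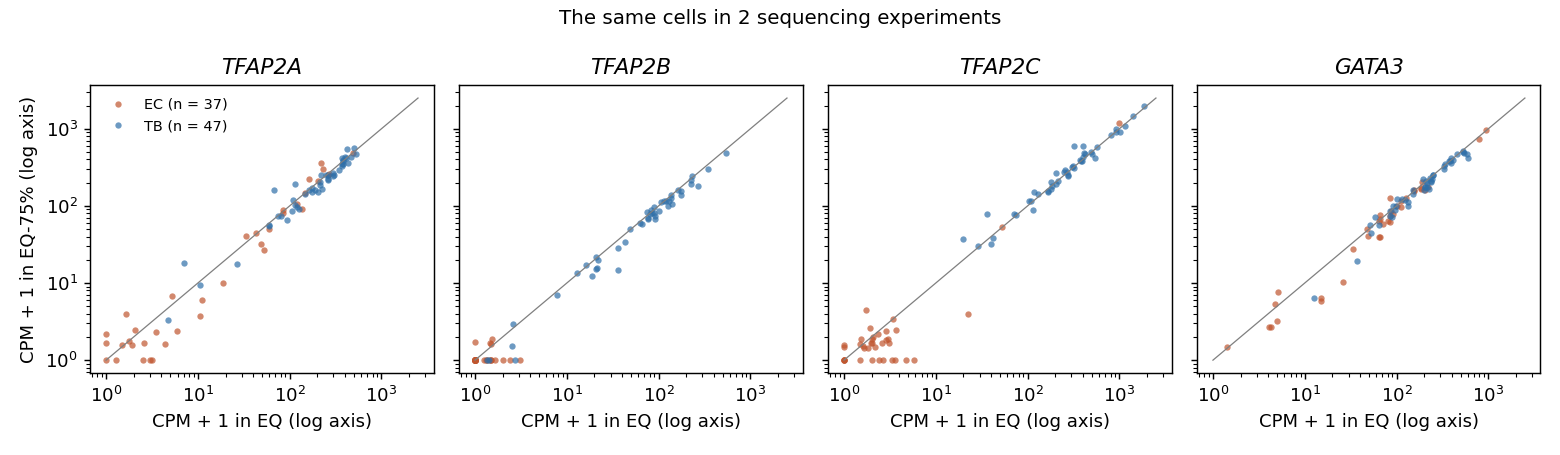
TFAP2A, TFAP2B, TFAP2C and GATA3 in the same cells in EQ (horizontal) and EQ-75% (vertical), as CPM + 1 on log axes, for 37 EC (orange) and 47 TB cells (blue), with a grey line at equality. TB cells lie along the line for all 4 genes, and EC cells of TFAP2B and most of TFAP2C sit in the lower left corner.

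Of the 45 TB cells passing in all 3 experiments, 45 held TFAP2C at 10 CPM or more in every experiment, 44 GATA3, 43 TFAP2A and 38 TFAP2B. A further 6 cells lacked TFAP2B in all 3. For TEAD4 and ELF5 the counts were 3 each in every experiment, with 3 and 2 cells in only some of them. Of 37 EC cells 28 held GATA3 and 17 held TFAP2A in every experiment, while 18 lacked TFAP2A in all 3. The division of EC cells by TFAP2A at 10 CPM was thus stable in 35 of 37 cells. This holds between libraries of the same cDNA and cannot show losses before the cDNA was amplified.

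Co-variation between factors was described over the 45 TB cells, with Spearman's rho and a limit of 0.3 in all 3 experiments. TFAP2B and TFAP2C varied together, with rho of 0.43, 0.34 and 0.42 in the order EQ, EQ-Vary and EQ-75%. TFAP2C and ELF5 had 0.32, 0.30 and 0.37. Of the 28 pairs of factors only these 2 passed. TFAP2A and TFAP2C had 0.18, 0.17 and 0.16, TFAP2A and TFAP2B -0.05, -0.04 and -0.09, and GATA3 with the 3 AP-2 genes -0.15 to -0.02. Among the 4 abundant factors 1 of 6 pairs passed, where 2.33% of the 30744561 pairs of the 7842 abundant genes did. In EC 0 of 3 pairs passed, beside 3.07% of all pairs. With Pearson's r of log2(CPM+1) the lowest value for TFAP2B and TFAP2C was 0.24 and the pair no longer passed, as did not TFAP2C with ELF5, while TFAP2C with TP63 and ELF5 with TP63 did, both of which rest on the few cells with TP63.

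**Figure D3:**
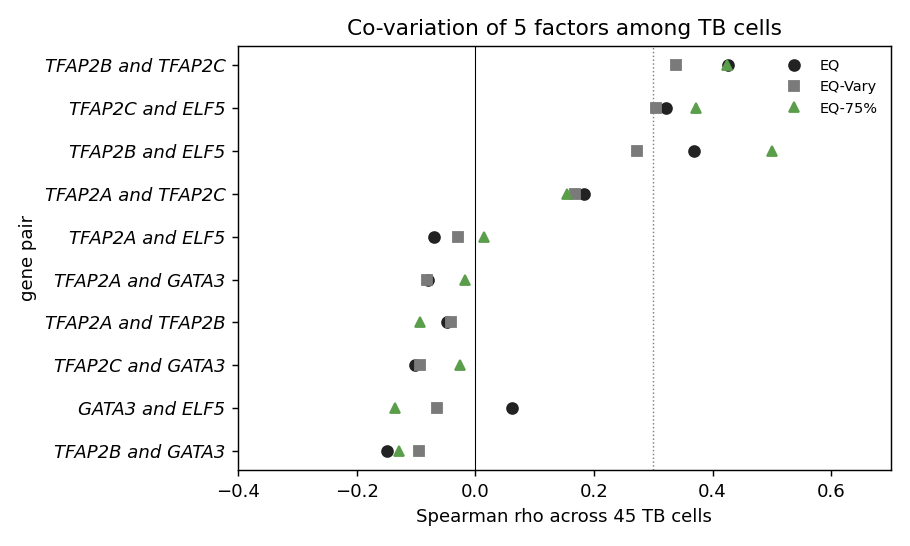
Spearman rho across 45 TB cells for the 10 pairs of the 5 factors found in at least 50% of TB cells, with a marker for each experiment and a dotted line at 0.3. TFAP2B with TFAP2C and TFAP2C with ELF5 lie at or right of the line in all 3 experiments, and pairs with GATA3 lie near or below 0.

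Marker sums in the same TB cells moved with TFAP2C and TFAP2B. TFAP2C had rho, in the order of experiments used above, of 0.56, 0.57 and 0.51 with the neural crest and surface ectoderm list, of whose 7 genes only SOX9 had a mean over 1 CPM (84.4 CPM in TB) while SOX10, FOXD3 and KRT5 were at 0. It had 0.41, 0.41 and 0.42 with the amnion list and -0.42, -0.34 and -0.44 with the extravillous list. Of the amnion markers named above IGFBP5 was by far the most abundant in TB. TFAP2B had -0.53, -0.50 and -0.46 with the trophoblast epithelium list, -0.47, -0.52 and -0.52 with the extravillous list and 0.47, 0.39 and 0.50 with the neural crest list. GATA3 had 0.35, 0.32 and 0.20 with the syncytiotrophoblast list, whose leading gene HSD3B1 had a mean of 81.2 CPM and whose hormone subunit CGA had 2.93 CPM. These means rest on few cells, since the summed level of the list in TB in EQ ran from 0 to 1391 CPM with a median of 3.11 CPM. TFAP2A stayed between -0.24 and 0.18 with every list. With the total count rho lay between -0.20 and 0.19 for these 4 factors. For ELF5, which passed the limit with TFAP2C, it was -0.37, 0.06 and -0.22. The points share libraries and depth, and what these marker levels contribute was not tested.

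The genes most like each factor across TB cells were found among the 7842 abundant genes by the lowest rho of the 3 experiments. For TFAP2C these were SH3BGRL2 (0.64), SERINC5 (0.59) and SLC12A2 (0.58), and for TFAP2B they were ZNF207 (0.63), PRSS12 (0.60) and TMEM132B (0.56). TFAP2A had MYEF2 (0.52), NSA2 (0.49) and CACUL1 (0.47). GATA3 had KIAA0319L (0.54), MFAP5 (0.46) and CCSER1 (0.45), and ELF5 had SLC15A1 (0.46), CREG2 (0.45) and PVRL4 (0.44). The genes at 0.3 or more in all experiments numbered 96 for TFAP2A (1.22%), 203 for TFAP2B (2.59%), 180 for TFAP2C (2.30%), 106 for GATA3 (1.35%) and 113 for ELF5 (1.44%), beside the 2.33% of all pairs.

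Relatives and partners of the factors were read from 5 gene lists. Of the AP-2 list 7 genes had a row, 3 were tested and none was called. The coactivator CITED2 had means of 6.58 CPM in EC and 16.9 CPM in TB, and the AP-2 repressors KCTD1 and KCTD15 had 9.80 against 23.04 CPM and 67.01 against 26.4 CPM. TFAP2D was listed at 0 and TFAP2E had 7 counts, all in TB, so the 3 studied AP-2 genes accounted for nearly all AP-2 counts.

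Of 6 GATA relatives and cofactors tested, none was higher and 3 were lower in TB in each experiment. The cofactor ZFPM2 had 28.3 CPM in EC and 0.0564 CPM in TB, GATA4 had 10.3 and 0.0530 CPM, and GATA5 had 8.99 and 0.389 CPM. These 3 genes reached 10 CPM in 7, 2 and 3 of the 38 EC cells. GATA2, which acts in endothelium, blood and trophoblast, had 65.7 ± 95.5 CPM in EC and 38.2 ± 59.2 CPM in TB and was not called.

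The TEAD and Hippo list had 16 genes tested, 8 higher and 1 lower in TB in each experiment, against the 16% and 10.8% of all genes. The cofactor VGLL1 had 0.359 CPM in EC and 118 CPM in TB (330-fold), and the YAP targets CTGF and ANKRD1 had 0.816 and 248 CPM (304-fold) and 0.513 and 92.5 CPM (180-fold). AMOT, a YAP-binding junction protein, was 22.3-fold higher in TB at 242 CPM. The coactivator WWTR1 (TAZ) was 4.21-fold lower in TB, with 402 CPM in EC and 95.6 CPM in TB. The TEAD genes themselves parted in direction. TEAD1 was 6.04-fold (10.98 against 66.3 CPM) and TEAD3 4.51-fold higher in TB (16.6 against 75.0 CPM), whereas TEAD2 (53.7 against 22.4 CPM) and TEAD4 had higher means in EC, neither past the limit.

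Of 9 CDX, ELF and p53 relatives tested in EQ 2 were higher and 1 was lower. ELF3, an epithelial ETS factor, had 0.224 CPM in EC and 97.2 CPM in TB (435-fold), above ELF5 in TB by level in CPM, and PERP, a desmosome gene regulated by p63, had 35.6 and 294 CPM (8.25-fold). CDX1 was lower in TB, 1.72 against 0.197 CPM, with 1 EC cell at 10 CPM or more, and it was not tested in EQ-75%. CDX4 was listed at 0, and TP73 had a mean of 0.114 CPM in TB.

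Of 12 other trophoblast regulators tested 8 were higher and 1 lower in TB. GRHL2, an epithelial factor, had 0.848 CPM in EC and 326 CPM in TB (384-fold), HAND1 0.732 and 219 CPM (299-fold) and MSX2 0.210 and 39.1 CPM (186-fold), and GRHL2 and HAND1 were at 10 CPM or more in 48 of 48 TB cells. OVOL1 had 1 count in EC and a mean of 3.26 CPM in TB. SP6 had 30.4 CPM in EC and 0.607 CPM in TB (50.02-fold lower). GCM1, the regulator of cell fusion in the syncytium, had 7.05 CPM in EC and 5.43 CPM in TB, and EOMES, which like CDX2 marks mouse trophoblast stem cells, was listed at 0.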

How the data were processed

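Single cells were captured on the Fluidigm C1 and their cDNA amplified in full length. Per the labels and the methods of the study, the authors trimmed reads to 51 bases and made expected counts per gene with RSEM 1.2.31 over Bowtie 1.2.3 (2 mismatches allowed), after CASAVA 1.8.2, on GRCh38. The deposited expected counts are not normalized and hold no molecular identifiers, so intervals cover counting error only. Passing cells held medians of 1499260 to 2025140 counts, and 1 count in such a cell is below 1 CPM. RSEM shares reads among similar genes, and every factor had some values that were not whole, ELF5 the most.

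The counts were rounded and scaled to CPM with Python 3.11.15, numpy 2.4.6, pandas 2.3.3 and scipy 1.17.1, and drawn with matplotlib 3.10.9. Genes with a mean of at least 1 CPM in EC or TB were compared by the ratio of means, called at 4-fold. A group at 0 was set at 3 counts over the group. Exact binomial and Poisson 95% intervals were used. No doublet caller was run. No test across cells was made, since cells are not replicates. The procedure was checked on simulated counts.

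The same cells recur in the 3 experiments. The pairing comes from the study's methods and the shared cell numbers, and was checked on each cell's deviations from the mean of its type (the deviations of one cell in EQ and another experiment correlated at 0.845 or more). Shifts between experiments were therefore medians of within-cell log2 ratios of CPM + 1, called at 1.5-fold. The genes and lists were chosen with earlier results of these data known. Named were the 8 factors, up to 4 genes with the largest fold past 4 per list and direction, the 3 genes most correlated with each factor found in at least 50% of TB cells, and the 2 most abundant markers of the type a list marks. Other genes were named after their values were seen. Alternatives were pooled CPM, median-of-ratios scaling, other filters, all cells, cells passing in every experiment, unrounded counts, log means, leaving out the highest cell, other correlations and no pairing. Coordinates and transcript lengths are from GENCODE v44 and promoter sequences from RefSeq GRCh38.p14. Protein sequences were not used here.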

Additional observations from a re-analysis of the deposited data

Results flagged for a closer look

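Counts of the factors were found in the cells that the limits left out of the comparisons above in EQ. In the 7 EC cells left out, the summed counts were 96 for TFAP2A, 17 for TFAP2C, 127 for GATA3 and 10 for ELF5, of 949374 counts in all. In the 3 TB cells left out they were 9 for TFAP2A, 8 for TFAP2C and 13 for GATA3, of 66809 counts. Each lies above the limit of 3 counts that a count of 0 allows. No other factor exceeded that limit in these cells.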

How the results depend on the processing

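The count of factors higher in TB stayed at 3 under most alternatives, but not always with the same genes. It was 4 with no filter on low values, where CDX2 joined, and 2 with all 96 cells, where 1 further EC count in a shallow cell left TP63 at 3.25-fold. With the mean of log2(CPM+1) TFAP2A replaced TP63. The count of factors lower in TB was 0, and 1 with pooled CPM and with EC 15 left out (a choice made after seeing the data), in both cases TEAD4. With the mean of log2(CPM+1) the genes called over the whole table fell from 2043 to 983 higher and from 1373 to 511 lower in TB, and median-of-ratios scaling moved the median log2 difference of all genes from 0.08 to -0.01. Higher calls were 59.8% of all calls, 65.8% on log means and 66.5% without the highest cell of each type. The factors found in at least 50% of EC cells numbered 5 at 1 count and 2 at 5 counts, after thinning and at 10 CPM (the last added after seeing the data). The pairs of factors that co-varied in TB numbered 2, and 4 when EQ alone had to pass. In all, 69 of the counts recomputed under an alternative lay within 1.5 times the reported value, the counts of 4 and 2 factors above included, and 8 did not. The 69 include counts that stayed at 0 and counts over all genes. Among recomputed values of single factors (folds, detection and shifts), 226 stayed within the margin set for each and 61 moved past it. Without the pairing of cells (no replicate block) 0 factors shifted in EC and 0 in TB by the ratio of mean CPM + 1, as with it. The 1 CPM added damps changes of low factors, so this ratio did not show the moves of the EC means of TFAP2B, ELF5 and TP63 given above. The low factors are limited by depth and by 1 sample per group, so that none of these differences has a replicate check.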
